A study of Homo sapiens with 2 samples.

Results

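The proteins of primary (azurophil) granules are made at the promyelocyte stage of neutrophil development, the stage at which cells of acute promyelocytic leukemia are arrested. Peaks of a PML-RARA antibody were examined here at 9 genes of this program: MPO, AZU1, PRTN3, ELANE, CTSG, SRGN, LYZ, CST7 and SERPINB1. A peak was assigned to a gene if it overlapped the gene body or the 20 kb on either side of it, with hg19 gene bodies given to the nearest 1 kb. Of the 20085 peaks in the list, 25 met this rule, and 5 of them lay in the windows of more than 1 gene.

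The samples were NB4 cells, an established human acute promyelocytic leukemia line that carries the PML-RARA fusion, with no treatment stated. CUT&Tag, in which an antibody directs a transposase to cut and tag the chromatin beside its target, was run on 2 replicates that form 1 group. Whether these came from separate cultures is not stated in the labels. The authors deposited 1 merged peak list, so no value has a spread between replicates and no test between groups was possible. Libraries from a control antibody were not analysed here, and the depth of sequencing is unknown.

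Primary granules hold a peroxidase, a family of serine proteases and their relatives, and lysozyme, packed on a proteoglycan and restrained by cytosolic and granule inhibitors. MPO makes hypochlorous acid from hydrogen peroxide and chloride. PML-RARA joins the nuclear body protein PML to the retinoic acid receptor alpha, which binds DNA as a partner of RXR at repeats of a hexamer with the letters AGGTCA. Genes of the granule program are known targets of the factors C/EBP, PU.1, RUNX1 and MYB.

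Of the 9 genes, RefSeq promoter windows were matched for AZU1, PRTN3, CTSG and SERPINB1, and not for MPO, ELANE, SRGN, LYZ and CST7. Every matched window is shown, with no choice by peaks. AZU1, PRTN3 and SERPINB1 carried a peak over the start site, and CTSG had none within its window. Each sequence runs from 150 bases before to 20 bases after the RefSeq start site on the gene's own strand, with build GRCh38.p14. Capitals mark every match, on either strand, to the letters TTGCNNAA (C/EBP), GAGGAA (PU.1), TGTGGT (RUNX), CAACNG (MYB), CCAAT (a common promoter box), TATAAA (the core of the TATA box) or AGGTCA (nuclear receptor hexamer). The peaks are on hg19, so their edges are not placed on these letters.
AZU1, chr19:827687-827856, plus strand: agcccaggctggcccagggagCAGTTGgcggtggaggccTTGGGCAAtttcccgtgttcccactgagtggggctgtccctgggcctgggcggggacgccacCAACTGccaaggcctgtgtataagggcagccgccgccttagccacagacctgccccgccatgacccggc
PRTN3, chr19:840849-841018, plus strand: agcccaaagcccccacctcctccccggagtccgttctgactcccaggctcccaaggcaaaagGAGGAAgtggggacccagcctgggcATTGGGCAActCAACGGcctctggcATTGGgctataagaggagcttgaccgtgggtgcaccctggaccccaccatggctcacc
CTSG, chr14:24576231-24576400, minus strand: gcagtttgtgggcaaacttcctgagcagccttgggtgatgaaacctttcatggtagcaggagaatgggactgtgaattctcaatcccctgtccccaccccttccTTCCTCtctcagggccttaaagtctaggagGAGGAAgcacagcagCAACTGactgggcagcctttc
SERPINB1, chr6:2841844-2842013, minus strand: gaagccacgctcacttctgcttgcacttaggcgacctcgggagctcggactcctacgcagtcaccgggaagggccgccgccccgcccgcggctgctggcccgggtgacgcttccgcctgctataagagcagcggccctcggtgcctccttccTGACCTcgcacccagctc

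The neighbouring genes AZU1 and PRTN3 both held C/EBP and MYB letters, at different distances from the start. In both, the C/EBP letters were read on the minus strand as TTGGGCAA, beginning 111 bases before the AZU1 start and 62 bases before the PRTN3 start. The MYB letters began 129 and 49 bases before the start in AZU1 and 52 bases before it in PRTN3. CTSG held them too, from 1 base before its start. PU.1 letters stood 88 bases before the PRTN3 start and at 46 and 16 bases before the CTSG start. Over the full 300-base windows, of which the sequences above show a part, the C/EBP letters were in 2 of the 4 promoters and in 10.5% of all 35116 RefSeq promoters of this length. PU.1 letters were in 2 of 4 and 27.9% of all, and MYB letters in 3 of 4 and 32.9% of all. The CCAAT letters were in 1 of 4, PRTN3, where they began 63 and 38 bases before the start, the former overlapping the C/EBP letters, and in 34.6% of all.

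The hexamer AGGTCA occurred in SERPINB1 alone among the 4, on the minus strand from base 3 of the transcript, and in 13.8% of all promoters. No direct repeat of it with a spacer of 0 to 5 bases and at most 1 mismatch over both copies was in the 4 windows, and 1.32% of all promoters had one. TGTGGT and TATAAA were in none of the 4 and in 13.1% and 11.5% of all. For these motifs only exact letters counted. The letters TATAAG, which differ from TATAAA in the last base, stand unmarked in the AZU1, PRTN3 and SERPINB1 sequences above. Absence of TATAAA is therefore not absence of a TATA-like box. SERPINB1 had 27 CpG dinucleotides in its window, against 9 in AZU1, 9 in PRTN3, 3 in CTSG and a median of 14 over all promoters. The share of G and C was 65.7% in SERPINB1, 66.0% in AZU1, 66.7% in PRTN3 and 53.0% in CTSG, beside a median of 58.7% over all promoters. These letters are a description of 4 windows and do not show that a factor binds there.

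Peaks lay in the windows of 8 of the 9 genes, all but CTSG. Of 426 genes with hg19 gene models in installed software, a set of convenience, 60.8% had a peak by the same rule, as did 66.1% of the 121 protein-coding genes among them with a body of up to 20 kb. Some gene copies, such as FAM138A, FAM138C and FAM138F, count separately among the 426 with the same values and no peak, which lowers the shares of that set. Other genes that lie together, such as CENPS and CENPS-CORT, count the same peaks separately, which raises the shares. The net effect was not measured. Of all 50 kb tiles of the chromosomes, 15.7% held a peak. Within 2 kb of the start site, 6 of the 9 genes had a peak (MPO, AZU1, PRTN3, SRGN, CST7 and SERPINB1), against 40.4% of the 426 genes and 45.5% of the 121. In AZU1, PRTN3, SRGN and CST7 the nearer edge of the start-site peak lay within the 0.5 kb by which the rounded start site may be off, so in these 4 genes the peak may stop just short of the true start. The windows of AZU1, PRTN3 and ELANE overlap, so the 9 genes are not separate sites.

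**Figure D1:**
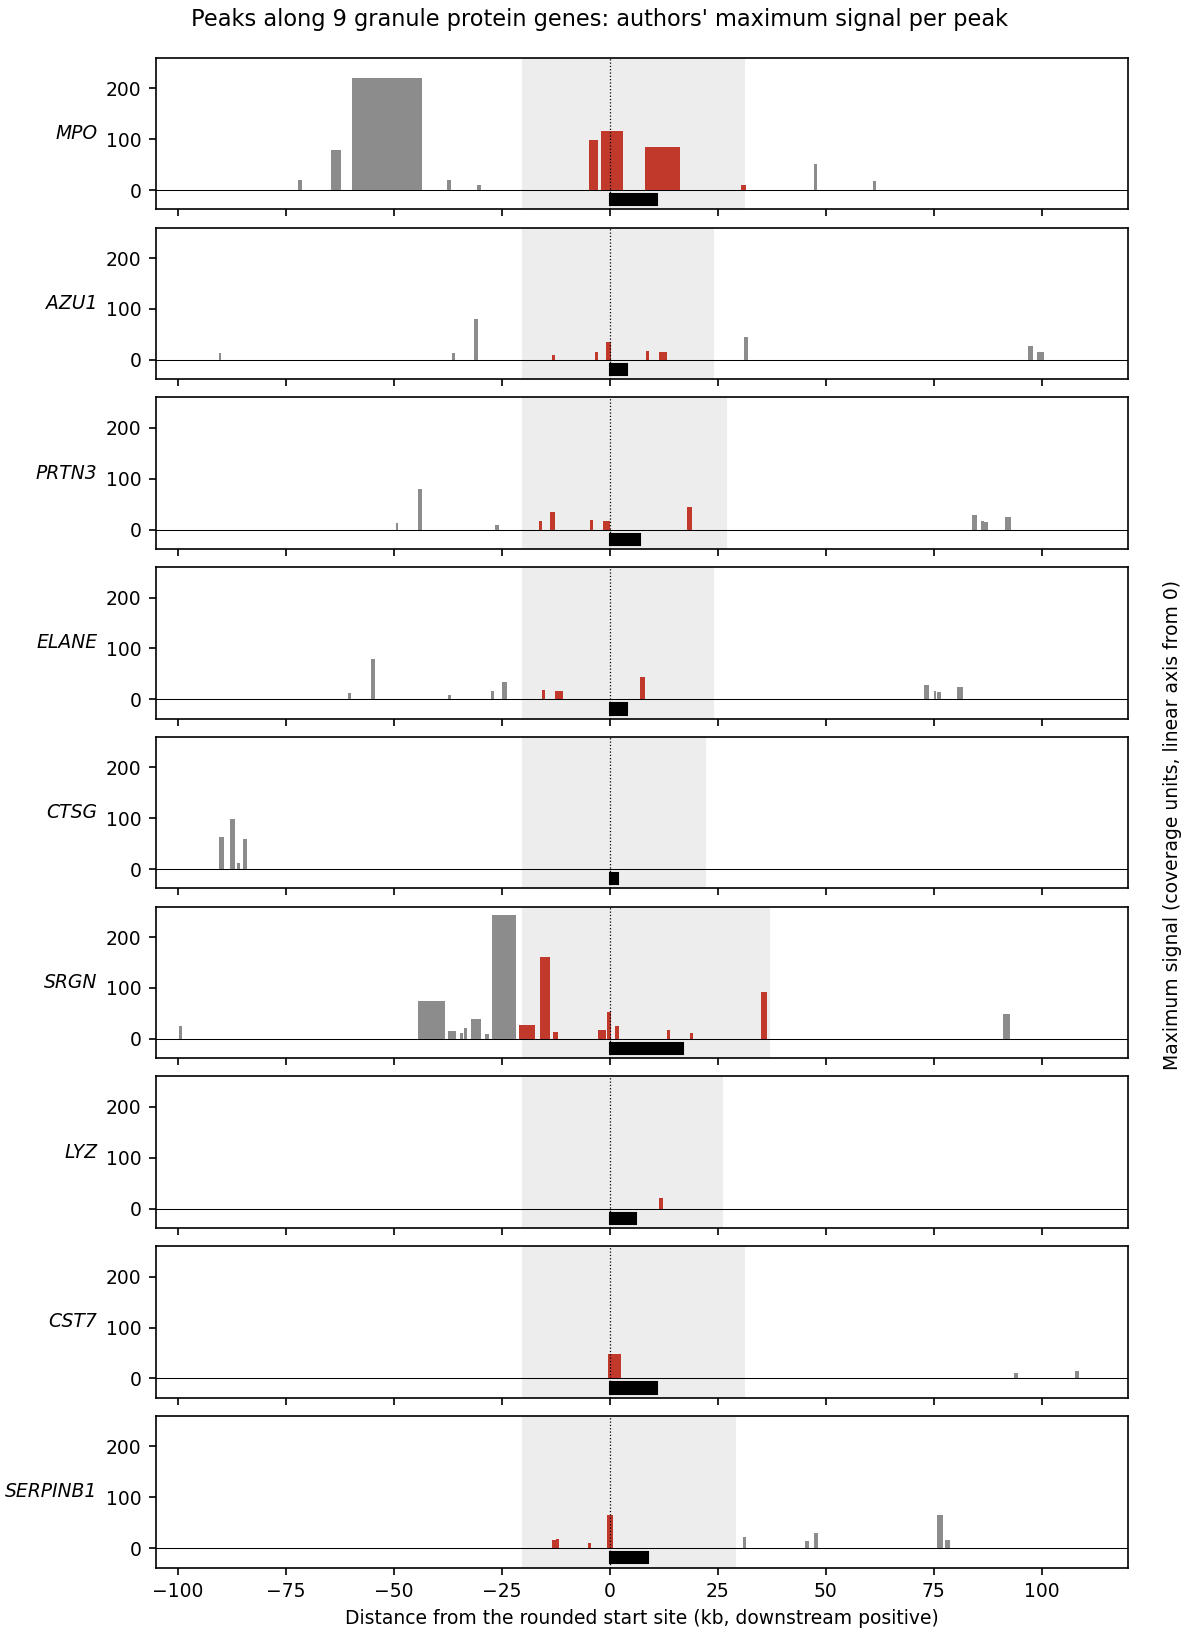
The authors' maximum signal of each peak (y axis, linear from 0) against distance from the rounded start site in kb (x axis, downstream to the right), in 1 panel per gene. Red bars are peaks assigned to the gene, grey bars are peaks up to 100 kb from the gene body that were not, bar width is peak length (drawn at no less than 0.6 kb), shading is the window and the black box is the gene body; MPO and SRGN carry the tallest peaks inside the window (116 and 160), and CTSG has none.

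Signal was concentrated at MPO and SRGN. The list gives each peak a total signal, read here as coverage summed over its bases, and a maximum. Summed over the peaks of a window, the total was 258185 at MPO and 158514 at SRGN, which were 46.7% and 28.7% of the 552556 held by the 25 peaks. Of the MPO sum, 126714 came from a peak that ran across the gene's end. Of the SRGN sum, 38156 came from a peak past the gene's end. The other windows followed in the order PRTN3 (46857), CST7 (45195), SERPINB1 (33058), ELANE (32731), AZU1 (31252), LYZ (7792) and CTSG (0). Since no spread between replicates is known, no part of this order could be set against error. The sums of PRTN3 and CST7, and those of SERPINB1, ELANE and AZU1, lay especially close together. The 3 protease genes of chromosome 19 also count shared peaks.

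MPO, the myeloperoxidase gene, was covered more than any other member: 30.7% of its 51 kb window lay in 4 peaks. The peak over its start site, at chromosome 17, 56354805 to 56360092, reached from 2.1 kb upstream to 3.2 kb into the gene, with a total of 88430 and a maximum of 116. A second peak followed upstream after a gap of only 627 bp, at 56360719 to 56362675 (total 39258, maximum 99). The strongest of the 25 lay at the other end of the gene, at 56341764 to 56349663, from 8.3 to 16.2 kb downstream of the start, across the gene's end and toward its neighbour LPO, the lactoperoxidase gene. It was 7899 bp long, with a total of 126714 that ranked 165 of the list and 8 on chromosome 17, and a maximum of 85.

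Both ends of MPO were thus under broad peaks, with 5142 bp free of peaks between them. Together the 3 formed a run of 20.9 kb, 72.4% of it in peaks, whose summed signal of 254402 ranked 112 among 11245 runs of the list joined by gaps of at most 10 kb. The fourth peak, at 56326457 to 56327512, touched the edge of the window and was weak (total 3783, maximum 9). Beyond the upstream edge stood the peak at 56401454 to 56417675, 43.5 to 59.7 kb from the start site, with a total of 553145, ranked 2 of the list. It was not assigned to MPO, and in gene order TSPOAP1 and MIR142 lie on that side. Among the 121 protein-coding genes of up to 20 kb, 1 had a window sum as high as that of MPO, and 2 had a start-site peak with as high a total.

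SRGN, which encodes serglycin, the proteoglycan core on which granule proteases are packed, had the most peaks, 9 in a window of 57 kb. The peak over its start site, at chromosome 10, 70847379 to 70848232, was modest, with a total of 14430 and a maximum of 53. A weaker peak lay on each side of it, at 70845408 to 70847104 (total 8628) and at 70849316 to 70850167 (total 6115). Upstream of these lay a weak peak at 70834816 to 70836107 (total 6247, maximum 14). The peak at 70831804 to 70834100, 13.9 to 16.2 kb from the start site, had a total of 48727 and the highest maximum of the 25, 160.

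The upstream peaks of SRGN continued past the window. Within 50 kb upstream there were 11 peaks with a summed total of 386899, of which 4 with 91388 met the rule and 7 with 295511 did not. The nearest to be left out, at 70820684 to 70826316, began 21.7 kb from the start site and was the strongest of them (total 170680, rank 83, maximum 244). The next peak toward the gene, at 70826940 to 70830781, was kept because it reached to 17.2 kb (total 27786, maximum 28). From 70803713 to 70850167, 13 peaks formed a run of 46.5 kb that passed over the start site, 62.9% of it in peaks, and by summed signal (407444) it ranked 39 of 11245. In gene order KIFBP is the protein-coding neighbour on that side.

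On the far side, the SRGN window held a peak at 70883077 to 70884513, 35.1 to 36.5 kb downstream of the SRGN start and past its end. That peak had a total of 38156 and a maximum of 93. It lay in the direction of VPS26A, whose start site was not placed on hg19 here, so it may belong to that gene. Of the remaining peaks downstream of the start site, that with a total of 5713 lay in the gene body. The other, with a total of 2712, lay past the gene's end. Among the 121 protein-coding genes of up to 20 kb, 5 had as many peaks in the window as SRGN and 6 as high a sum.

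The serine protease genes AZU1, PRTN3 and ELANE lie side by side on chromosome 19 and had only modest peaks. AZU1 encodes azurocidin, an antimicrobial relative of the proteases that has lost their activity, PRTN3 encodes proteinase 3, and ELANE encodes neutrophil elastase. Over the 68 kb that their windows span there were 6 peaks with a summed total of 49812, and none was in the top 10% of the list by total signal. AZU1 had a peak over its start site at 827121 to 828348 (total 11142, maximum 35, rank 6277). PRTN3 had one at 839460 to 841193, from 1.5 kb upstream to 0.19 kb past the rounded start site (total 10124, maximum 16, rank 6863).

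ELANE had no peak at its start site or over its body. Its nearest lay 7.0 to 8.1 kb downstream, past the end of the gene and on the side of its neighbour CFD, the gene of complement factor D, at 859044 to 860145. This was the strongest of the 6 (total 18560, maximum 44, rank 3691). Upstream, ELANE shared the PRTN3 start-site peak at 10.8 to 12.5 kb, and a weak one at 836522 to 836995 (total 4047). The other peaks of the block, at 814570 to 815347 and 824700 to 825210, had totals of 2955 and 2984.

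CTSG encodes cathepsin G, the serine protease whose gene lies with those of granzymes on chromosome 14, and no peak was listed in its 42 kb window. The nearest was 83.9 kb upstream of its start site, the side on which GZMH and GZMB follow in gene order. It belonged to a group of 4 peaks between 25128871 and 25135444 with totals of 19199, 4069, 26279 and 20886. Of the 121 protein-coding genes of up to 20 kb, 32 had their nearest peak at least as far away, so the distance at CTSG was not unusual in that set. A peak that is not listed may lie under the authors' threshold, since the lowest total in the list was 2577.

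LYZ encodes lysozyme, which cuts bacterial cell walls, and 1 peak was assigned to it. That peak lay at chromosome 12, 69753395 to 69754285, 11.4 to 12.3 kb downstream of the start site and past the end of the gene, toward YEATS4, with a total of 7792 and a maximum of 20. Both values were near the medians of the whole list, 6479 and 22. No other peak lay within 100 kb of the LYZ gene body, and 53 of the 121 genes had their nearest peak at least as far from the start site.

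The genes of the 2 inhibitors each had their strongest peak at the start site. CST7 encodes cystatin F, an inhibitor of the cysteine cathepsins that activate the granule proteases. Its only assigned peak, at chromosome 20, 24929547 to 24932712, reached from 0.45 kb upstream to 2.7 kb into the gene, with a total of 45195 (rank 1101) and a maximum of 48. SERPINB1 encodes a cytosolic inhibitor of elastase, proteinase 3 and cathepsin G. Its start-site peak, at chromosome 6, 2841266 to 2842592, had a total of 22186 (rank 2957) and a maximum of 65, and 3 weak peaks 4.4 to 13.4 kb upstream had totals of 2937, 3173 and 4762.

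By the total signal of the start-site peak the 6 genes that had one ran from MPO (88430) through CST7 (45195), SERPINB1 (22186), SRGN (14430) and AZU1 (11142) to PRTN3 (10124). Their median was 18308, beside 9098 in the 172 of 426 genes with such a peak and 8042 in the 55 of 121. Each of the 6 totals was above both of these medians. The PRTN3 peak was long (1733 bp) and low. Its maximum of 16 and its total divided by length of 5.8 were below the medians of the whole list, 22 and 7.53. By total, MPO and the inhibitor genes thus led, and AZU1 and PRTN3 came last, in an order that has no replicate check. The order of the leading genes depends on the measure, since total also follows peak length. By total divided by length, SRGN (16.9), MPO (16.7) and SERPINB1 (16.7) stood above CST7 (14.3), AZU1 (9.1) and PRTN3 (5.8).

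**Figure D2:**
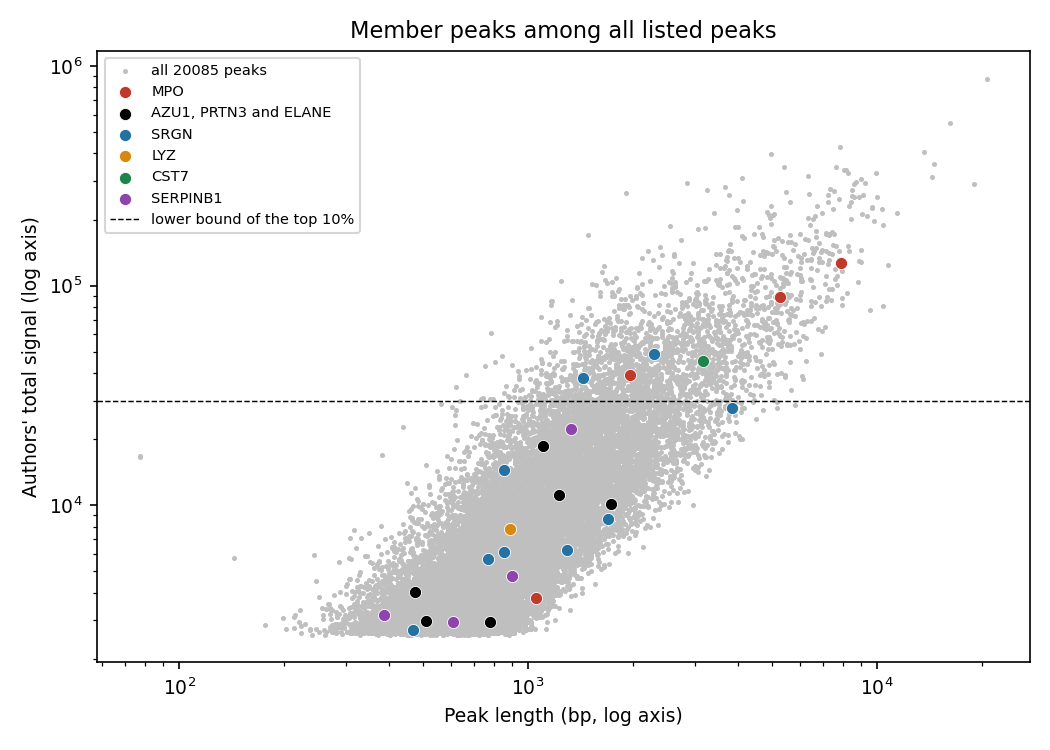
The authors' total signal (y axis, log scale) against peak length in bp (x axis, log scale) for all 20085 peaks in grey, with the 25 assigned peaks colored by gene. The 6 assigned peaks above the dashed line, the lower bound of the top 10% at 29696, belong to MPO, SRGN and CST7, while the peaks of AZU1, PRTN3 and ELANE and the peak of LYZ lie below it.

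Taken one by one, most of the 25 peaks were ordinary members of the list. Their median total was 8628, against 6479 over all peaks, and 14 of 25 exceeded that value. The median maximum was 20 against 22, the median length 1101 bp against 893 bp, and the median of total divided by length 8.20 against 7.53. By total signal, 6 of 25 (24.0%) were in the top 10%, which starts at 29696, against 10% of all peaks. By maximum, 5 of 25 (20%) were in the top 10%, from 68 upward, against 10.3% of the list (ties included), and 5 of 25 were longer than 2 kb, against 11%.

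The high values came from few genes. Of the 6 peaks in the top 10% by total signal, 3 were in the window of MPO, 2 in that of SRGN and 1 in that of CST7. In the MPO window, the strongest of the 3 (total 126714) ran across the gene's end, toward LPO. In the SRGN window, 1 of the 2 lay past the gene's end, toward VPS26A. Without MPO, 3 of 21 (14.3%) were in the top 10%, near the share of the whole list. Without SRGN, the share stayed at 25%. Total signal and length move together across the list, so a rank by total is not a rank by height. By total divided by length, the CST7 peak ranked 3162 and the MPO start-site peak 2227. The highest of the 25 by that measure lay in the SRGN window, 35.1 kb downstream and past the gene's end (26.6, rank 639). Next came the peak 13.9 kb upstream of SRGN (21.2, rank 1208).

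**Figure D3:**
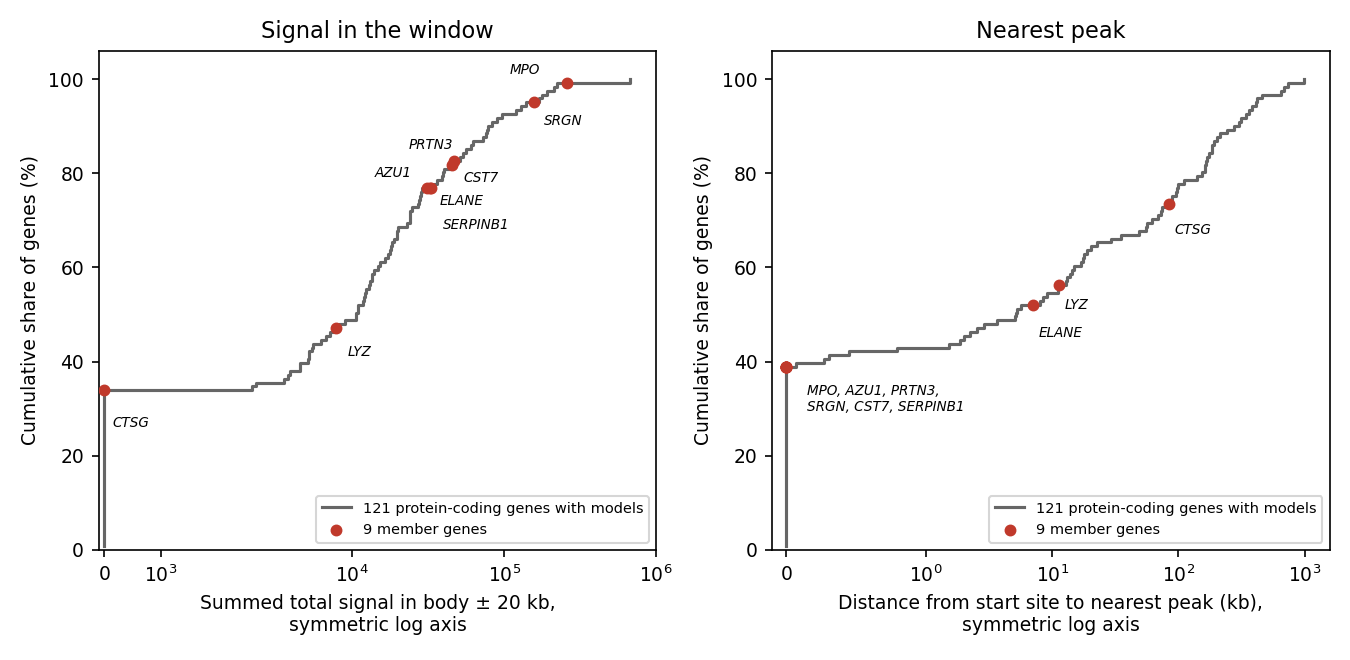
Cumulative share of 121 protein-coding genes with hg19 models and a body of up to 20 kb (grey line) against the summed total signal in the window (left, symmetric log axis) and the distance from start site to nearest peak (right, kb, symmetric log axis), with the 9 genes as red points. MPO and SRGN stand above 99.2% and 95.0% of these genes by signal, LYZ above 47.1%, CTSG has no signal, and 6 of the 9 genes have a peak over the start site.

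Window by window, 7 of the 9 genes had more summed signal than the median of the 121 genes (10527): all but LYZ and CTSG. SERPINB1, ELANE and AZU1 each stood above 93 of the 121, CST7 above 99, PRTN3 above 100, SRGN above 115 and MPO above 120. Peaks shared by AZU1, PRTN3 and ELANE are counted for each of them, so the 7 genes are not 7 separate sites. The sum at ELANE holds no peak over its start site or body. Against 50 kb tiles of all chromosomes, which include gene deserts, the same 7 windows stood above 96.1 to 99.8% of tiles, and the LYZ window above 89.9%. The windows are 42 to 57 kb long, so they are close to the tiles in length but not equal to them. No test was made of these positions, since the genes were chosen with results of this list known.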

How the data were processed

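CUT&Tag libraries of 2 replicates of NB4 cells, grouped by their titles, were sequenced as read pairs, per the labels' protocols. Trimmomatic, Bowtie2, SAMtools, bedtools, SEACR and the build hg19 are named in the submitters' processing notes; the versions used, the threshold, any control track and how replicates were merged are not stated there or in the labels. The deposited table gives 1 merged peak list with 2 signal columns. The column headed width was read as SEACR's total signal, since it exceeded the peak length in all 20085 rows and never exceeded length times maximum, and the other signal column as the maximum; both are coverage values of the authors with no stated scaling to depth, used only within this list. Positions are printed as listed and may count starts from 0.

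Gene bodies of the 9 genes are known to 1 kb, so distances from start sites carry an error of about 0.5 kb. Peaks were intersected with gene windows in Python 3.11.15 (pandas 2.3.3), after the counting and motif steps were tested on simulated data. Background genes were 382 of a table in pyranges 0.1.4 and 44 of the hg19 sample in GenomicFeatures; gene spans over 5 Mb were left out. The pyranges table names no build: 151 of its 382 start sites had a peak within 2 kb, against 33 and 35 after shifts of 100 kb. It is a software example, with 144 of the 426 genes on chromosome 1. Of 367 genes of the pyranges table matched by symbol to RefSeq on GRCh38.p14, 352 had starts that differed by more than 10 kb from that build. Promoters, gene order and gene biotypes also came from RefSeq on GRCh38.p14, and no coordinates were converted. Of 35 other granule and protease genes on a list drawn up for this comparison, 0 had an hg19 model at hand, so they are not analysed here.

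All 9 genes are named, as are their neighbours; peaks are given singly where strongest, at a start site or in the top 10%, and others chiefly by range. The genes, motifs and lists were chosen with earlier results of these data known. Alternatives varied the window, the overlap rule, the peak threshold and merging; leaving out SRGN or MPO, and the background of 121 short protein-coding genes, were added after the data had been seen.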

Additional observations from a re-analysis of the deposited data

How the results depend on the processing

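Of 44 recomputed values, 36 stayed within set bounds and 8 moved outside. The bounds were 1.5 times the reported count, or the 95% binomial interval of the reported median or share. They are loose. The interval of the share in the top 10%, 9.36 to 45.1%, takes the 25 peaks as independent and holds the list's own 10%. The 14.3% without MPO therefore counted as staying. Leaving out MPO or SRGN also lowers the count of genes with a peak by construction. The number of genes with a peak ranged from 6 to 8 of 9, and of genes with a start-site peak from 4 to 6, in every setting tried; the lowest of each came with peaks of the upper quartile of total signal alone, when the shares of background genes fell to 26.3% and 12.4%. The count of 25 assigned peaks was 16 when the window was 5 kb, 41 when it was 50 kb, 14 with peaks at or above the list's median signal, 10 with the upper quartile alone, and 16 without SRGN, which holds 9 of them. The median total signal of 8628 became 24986 and 38707 under the 2 stricter thresholds, which raise it by construction, as they did the medians of the list (13912 and 25196). The share in the top 10% became 60.0% with the upper quartile alone, against 40.0% of the list so cut. No replicate could be left out and no paired analysis was possible because the list merges both replicates of 1 group. Depth is unknown, so a gene without a listed peak, such as CTSG, has no detection limit.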
